A study of Sorghum bicolor with 9 samples.

Results

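The plant circadian clock and the phytochromes, the red and far-red light receptors that set it, were followed in sorghum leaves through 7 genes chosen by their locus identifiers out of 35281 in the table. They were the clock genes LHY (Sobic.007G047400), TOC1 (Sobic.004G216700), PRR37 (Sobic.006G057866, the maturity gene Ma1) and GI (Sobic.003G040900), and the phytochrome genes PHYA (Sobic.001G111500), PHYB (Sobic.001G394400, Ma3) and PHYC (Sobic.001G087100, Ma5). Leaves came from wild-type plants of Sorghum bicolor BTx623, an inbred sorghum line, at the stage of 4 leaves. Control plants grew under normal conditions, moderately stressed plants in saline-alkali soil with 3‰ salt at pH 8.1, and severely stressed plants in such soil with 5‰ salt at pH 8.1. Titles and treatment description give salt in ‰, whereas a tag on each stressed sample has these digits in percent. Each of the 3 groups held 3 libraries, described as biological replicates. Whether each came from its own plant or pot is not given, so the p-values measure the spread between these libraries. Salt and pH of the control soil, the hour of harvest and the day length were also not given in the sources used here.

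In Arabidopsis, where the clock is best known, the Myb factor LHY peaks around dawn and represses TOC1, and TOC1, a pseudo-response regulator that peaks in the evening, represses LHY in turn. GI is an evening-phased protein that links the clock to flowering. Levels of such genes depend on the hour, and the hour of harvest was not given. In their changes below, an effect of the hour and one of the soil cannot be told apart. In sorghum, PRR37 is a pseudo-response regulator that delays flowering in long days, and PHYB and PHYC are needed for that delay. PHYA is the phytochrome that builds up in darkness and is rapidly degraded in light, while PHYB and PHYC are light-stable.

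The family labels in the deposited table went with the names of 6 members. LHY carried a Myb DNA-binding label, TOC1 the CCT label, PRR37 a response regulator label and the 3 phytochromes the GAF label, while GI had none. The 3 phytochrome genes lie on chromosome 1, PHYC at 6748036 to 6753421, PHYA at 8708287 to 8721152 and PHYB at 68034103 to 68043358, PHYA on the plus strand and the others on the minus strand. PRR37 lies on chromosome 6 (40304883 to 40316799), LHY on chromosome 7 (4745530 to 4757815), TOC1 on chromosome 4 (56625893 to 56628817) and GI on chromosome 3 (3821973 to 3830666), all 4 on the plus strand. These positions are those of the deposited table, on a build not given in the sources used here. A locus on the opposite strand of PHYA had 3 to 10 counts in the control and moderate libraries and 38, 95 and 74 in the severe ones, beside 1577 to 33974 for PHYA. The table also lists a same-strand locus overlapping PHYA, with 0 to 3 counts, and an opposite-strand locus overlapping LHY, with 0 to 6 beside 384 to 4014. Strand use in counting was not given, so reads of a gene and its opposite-strand partner cannot be told apart.

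Assigned reads totalled 17792497 to 22449989 per library. The severe libraries stood apart on the first principal component, at 151.5 to 238.5 against -115.7 to -67.99 in the other 6, and their biological coefficient of variation was 60.8%, where control had 24.7% and moderate 26.2%. Severe replicate 1 had the lowest normalisation factor, 0.512, where the other 8 libraries had 0.858 to 1.41. Values below are read counts per library size after TMM scaling (CPM), as mean ± SD (n = 3 libraries). A count of 0 allows up to 3 counts, which is 0.1003 to 0.286 CPM depending on the library, for counting error only. In leaf tissue, fewer cells that express a gene and less RNA per cell cannot be told apart. The table names no leaf marker gene, and none was looked up by identifier. The tissue label was therefore looked at only through 2 family labels that are not specific to leaves. The summed level of the 2 genes labelled malic was 19.0 to 20.2 CPM in control, 16.6 to 23.4 in moderate and 65.2 to 88.5 in severe. That of the 2 genes labelled RuBisCO_large was 3.65 to 7.25, 3.06 to 5.85 and 0.534 to 0.857 CPM. Their part in the results below was not tested. Changes are log2 ratios between groups from edgeR's quasi-likelihood fit with all 9 libraries, and a gene was called at an adjusted p below 0.05. That fit has a single spread per gene for all groups. Moderate against control thus also carries the spread of the severe libraries. For PHYA in that comparison the SE was 0.35, and 0.16 with only those 2 groups in the fit. The severe comparisons in turn carry the smaller spread of the third group, so their SE can be too small. For PHYA in severe against control it was 0.35, and 0.43 with only those 2 groups in the fit. TOC1 in severe against moderate went the other way, with 0.37 and 0.27.

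PHYA, the light-labile phytochrome, had the largest fitted change of the 7 genes in both severe comparisons, but not in moderate against control. Its 3 control libraries read 344, 311 and 241 CPM, the moderate ones 65.4, 76.2 and 70.0, and the severe ones 928, 1597 and 1966. No library of any group came within the range of another group. The mean fell from 299 ± 52.8 CPM in control to 70.5 ± 5.42 in moderate and stood at 1497 ± 526 in severe. PHYA thus fell 4.23-fold in moderate soil (log2 change -2.08, SE 0.35, edgeR quasi-likelihood test, Benjamini-Hochberg adjusted p = 0.00575) and rose 5.01-fold in severe soil (log2 change 2.33, SE 0.35, edgeR adjusted p = 0.000405). Between the stresses themselves, severe exceeded moderate 21.2-fold (log2 change 4.41, SE 0.38, edgeR adjusted p = 4.42e-05), or 13.0-fold with total counts as the only scaling. All 3 calls held when any 1 of the 9 libraries was left out, with log2 changes of -2.22 to -1.97, 2.14 to 2.57 and 4.20 to 4.65. The comparisons with control share the control libraries.

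PHYB, the light-stable phytochrome whose loss makes sorghum flower early, stood below its control level in every stressed library. Its control libraries read 40.4, 44.4 and 42.2 CPM, moderate ones 20.2, 25.0 and 22.1, and severe ones 12.9, 24.1 and 30.1. Control lay above both stressed groups, which overlapped each other. The mean went from 42.3 ± 2.04 CPM in control to 22.5 ± 2.41 in moderate and 22.4 ± 8.75 in severe. PHYB fell in severe soil (log2 change -0.92, SE 0.29, edgeR quasi-likelihood test, Benjamini-Hochberg adjusted p = 0.0191). The moderate change was of like size but missed the threshold (log2 change -0.91, SE 0.29, edgeR adjusted p = 0.058). With only the 2 groups compared in the fit these calls traded places, with adjusted p = 0.00118 for moderate and 0.0533 for severe in edgeR. The severe call was lost without control replicate 2, and the moderate one was made without severe replicate 1 or 3. DESeq2 also made the moderate call (adjusted p = 0.00641), as did edgeR with DESeq2 size factors (0.0365) and limma at both pseudocounts (0.0309 and 0.0461), while total-count scaling gave -0.43 (edgeR adjusted p = 0.526). Between severe and moderate the 95% interval of the log2 difference ran from -0.65 to 0.64, and total-count scaling gave -0.70.

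PHYC acts together with PHYB in the sorghum photoperiod response. After TMM scaling it took the same order over the groups as PHYA, within a narrower range. It read 102, 93.7 and 89.2 CPM in control, 76.6, 70.1 and 69.7 in moderate and 143, 158.5 and 128 in severe. None of the groups overlapped after TMM scaling. Before scaling, severe replicate 1 held 1500 counts, below the 1765 to 1922 of the control libraries. PHYC rose from 94.9 ± 6.32 to 143 ± 15.4 CPM in severe soil (log2 change 0.59, SE 0.19, edgeR quasi-likelihood test, Benjamini-Hochberg adjusted p = 0.0204) and exceeded its moderate mean of 72.1 ± 3.90 CPM by 0.99 on the log2 scale (SE 0.19, edgeR adjusted p = 0.00182). For moderate against control the change of -0.40 did not pass (95% interval -0.82 to 0.03, edgeR adjusted p = 0.182), although it did with only those 2 groups in the edgeR fit (adjusted p = 0.0246). With total counts as the only scaling that change was 0.09, and the severe changes against control and moderate were 0.27 and 0.18, neither called. The severe call against control was also lost with only the 2 groups in the fit (edgeR adjusted p = 0.0540), with no low-count filter (0.0541) and without any 1 of the control libraries.

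**Figure D1:**
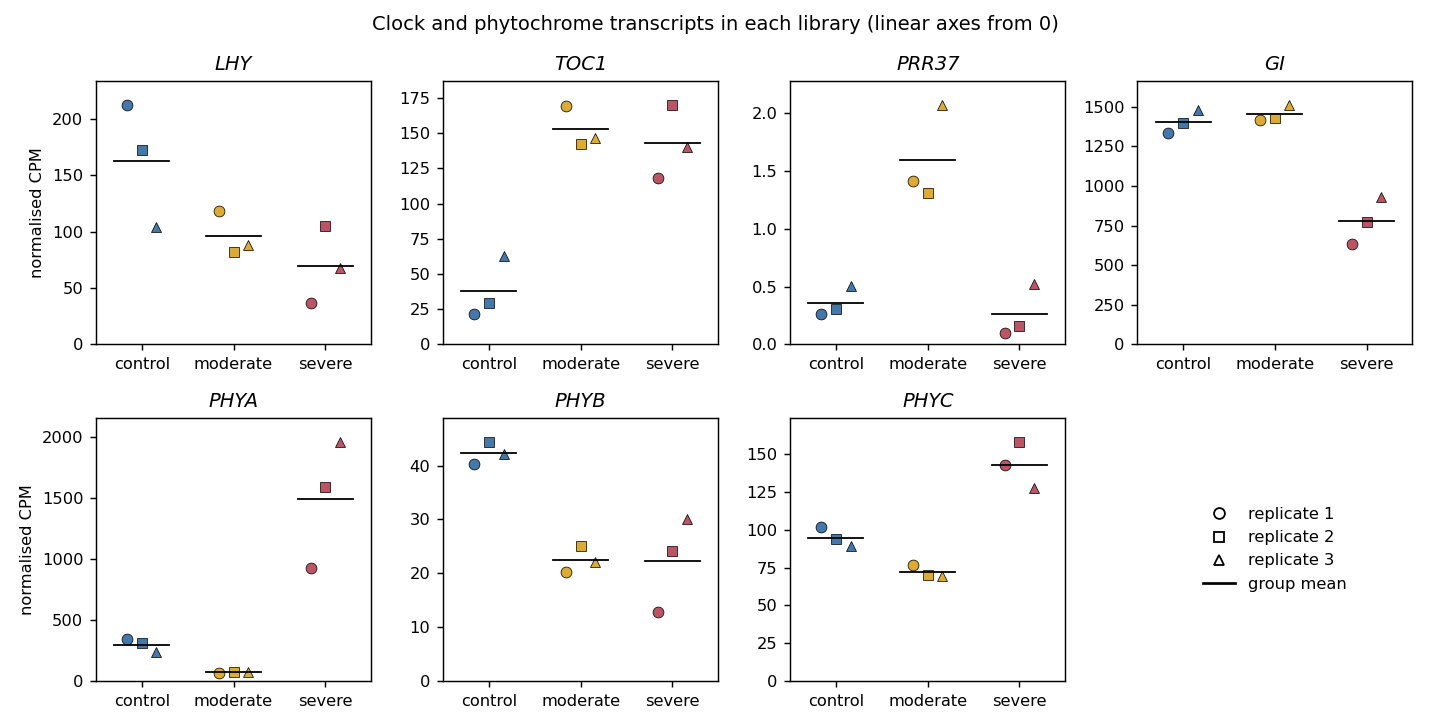
Normalised CPM of each gene (y axes, linear from 0) in the 3 libraries of each group (x axes), with marker shapes for the replicates and bars for the group means. PHYA means were 299, 70.5 and 1497 CPM in control, moderate and severe, and TOC1 means were 37.8, 153 and 143.

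TOC1, the evening-phased repressor, was higher in both stressed groups. Its control libraries read 21.4, 29.3 and 62.7 CPM, the moderate ones 169, 143 and 147, and the severe ones 118, 170.2 and 140.4. Every stressed library exceeded every control library, and control replicate 3 lay above the other 2 controls. The mean rose from 37.8 ± 21.9 CPM to 153 ± 14.2 in moderate (log2 change 2.01, SE 0.38, edgeR quasi-likelihood test, Benjamini-Hochberg adjusted p = 0.00932) and to 143 ± 26.0 in severe (log2 change 1.92, SE 0.38, edgeR adjusted p = 0.00187). Without any 1 library the changes were 1.73 to 2.59 and 1.62 to 2.48, and all of them passed. Moderate and severe overlapped, with a 95% interval of -0.92 to 0.73 for their log2 difference, which was -0.86 with total-count scaling.

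LHY, the dawn-phased Myb factor, ran the other way. It read 212, 172 and 104 CPM in control, 118, 81.4 and 87.9 in moderate and 36.6, 105 and 67.7 in severe. The groups overlapped, since control replicate 3 was the lowest control library, close to severe replicate 2. The mean was 163 ± 54.9 CPM in control, 95.7 ± 19.5 in moderate and 69.8 ± 34.3 in severe. LHY fell in severe soil (log2 change -1.22, SE 0.40, edgeR quasi-likelihood test, Benjamini-Hochberg adjusted p = 0.0234). That call was lost without control replicate 1, control replicate 2 or severe replicate 3, and with only the 2 groups in the fit (adjusted p = 0.0604 in edgeR). The moderate change of -0.77 did not pass (95% interval -1.67 to 0.13, edgeR adjusted p = 0.22), and neither did severe against moderate (log2 change -0.46, 95% interval -1.35 to 0.44; -1.16 with total-count scaling).

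Control replicate 3 thus held the least LHY and the most TOC1 of the control libraries. The ratio of LHY to TOC1 counts within a library needs no scaling between libraries. It was 9.91, 5.88 and 1.66 in control, 0.697, 0.571 and 0.600 in moderate and 0.309, 0.617 and 0.482 in severe. LHY reads outnumbered TOC1 reads in 3 of 3 control libraries and in none of the 6 stressed ones. On the log2 scale the ratio averaged 2.20 ± 1.33 in control, -0.69 ± 0.15 in moderate and -1.15 ± 0.51 in severe, a difference from control of -2.89 for moderate and of -3.34 for severe. Moderate and severe overlapped in this ratio. Genes differ in length, so a ratio of counts compares libraries and not the levels of the 2 genes.

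GI, the evening-phased clock protein gene, was lower in severe soil than in both other groups. Control read 1336, 1398 and 1477 CPM, moderate 1416, 1431 and 1512, and severe 634, 771 and 930.4. Control and moderate overlapped and severe lay below both. The mean was 1404 ± 70.6 CPM in control, 1453 ± 51.6 in moderate and 779 ± 148 in severe. GI fell in severe soil against control (log2 change -0.85, SE 0.30, edgeR quasi-likelihood test, Benjamini-Hochberg adjusted p = 0.0302) and against moderate (log2 change -0.90, SE 0.30, edgeR adjusted p = 0.0253). For moderate against control the log2 change was 0.05, with a 95% interval of -0.62 to 0.72. The fall against control did not pass with only the 2 groups in the fit (adjusted p = 0.0700 in edgeR) or with DESeq2 size factors (log2 change -0.75, edgeR adjusted p = 0.0556), nor without any 1 control library, moderate replicate 2 or 3, or severe replicate 2. The fall against moderate was lost with only the 2 groups in the fit (adjusted p = 0.0941 in edgeR) and without moderate replicate 2 or 3, and total-count scaling moved it to -1.65.

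The ratio of GI to TOC1 counts parted all 3 groups. It was 62.4, 47.7 and 23.5 in control, 8.37, 10.025 and 10.3 in moderate and 5.35, 4.53 and 6.63 in severe. The ratio of GI to LHY did not part them, with log2 means of 3.17 ± 0.60, 3.94 ± 0.31 and 3.59 ± 0.64. Its groups overlapped in all 3 comparisons.

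PRR37, the pseudo-response regulator that delays flowering, was near the limit of detection. Its counts were 5, 6 and 10 in control, 34, 39 and 62 in moderate and 1, 3 and 9 in severe. Every moderate library exceeded every other library. In CPM the means were 0.358 ± 0.129, 1.60 ± 0.414 and 0.259 ± 0.229. PRR37 was higher in moderate than in control (log2 change 2.14, SE 0.58, edgeR quasi-likelihood test, Benjamini-Hochberg adjusted p = 0.0341) and lower in severe than in moderate (log2 change -2.54, SE 0.61, edgeR adjusted p = 0.00553). It reached the count minimum for testing in 3 moderate libraries but in 1 control and 1 severe library, so it was tested because moderate was high. Its calls are therefore no support for a difference. The rise in moderate was lost without any 1 of the control or moderate libraries, at log2 changes of 1.92 to 2.46, and with limma on log2(FPKM + 1). The change of severe against moderate was -3.24 with total-count scaling, and -2.24, -2.25 and -3.49 without severe replicate 1, 2 or 3. With limma it was -0.92 on log2(FPKM + 0.1) and -0.14 on log2(FPKM + 1). For severe against control the change was -0.40, with a 95% interval of -1.86 to 1.06.

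**Figure D2:**
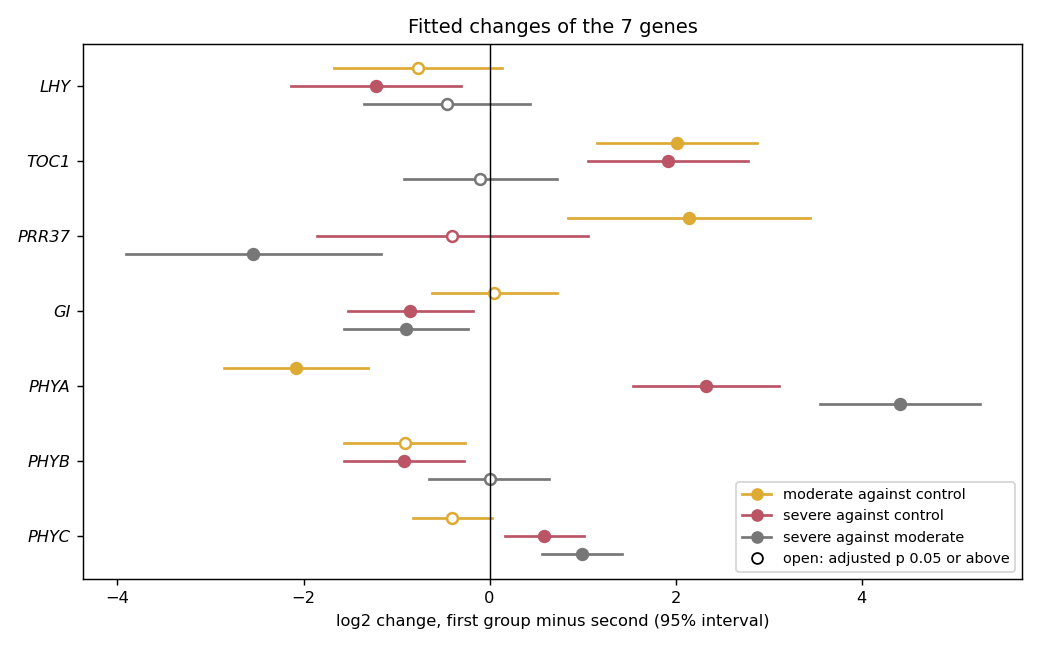
Fitted log2 change of each gene (x axis, first group minus second, points with 95% intervals) in the 3 comparisons, filled where the adjusted p was below 0.05. PHYA lies at -2.08 for moderate and 2.33 for severe against control, while TOC1 lies at 2.01 and 1.92.

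Set against all tested genes, the 7 members were called as follows. For moderate against control 2 rose, TOC1 and the low-count PRR37 that was tested because moderate was high, and 1 fell, beside 17.1% of the 22356 tested genes called (8.94% higher, 8.17% lower), and the groups did not overlap for 5 members, beside 55.9% of genes. With only those 2 groups in the fit 2 rose and 3 fell, beside 45% of genes (22.8% higher, 22.2% lower). For severe against control 3 rose and 3 fell, beside 66.5% of genes called (31.6% higher, 34.9% lower). With 7 members this share is not read as a result about them. Groups did not overlap for 5 members there, beside 72.1% of genes. With only those 2 groups in the fit 2 of the 6 members tested rose and 0 fell, beside 60.5% of genes (30.4% higher, 30.1% lower). There LHY, GI, PHYB and PHYC had edgeR adjusted p = 0.0533 to 0.0700 and unadjusted p = 0.0326 to 0.0453, and DESeq2 with all 9 libraries called 6 members. For severe against moderate 2 rose and 2 fell, beside 63.2% of genes (29.6% higher, 33.6% lower). Those that fell were GI and PRR37, and PRR37 was tested because moderate was high. Groups did not overlap for 4 members, PRR37 among them, beside 69.6% of genes. With only those 2 groups in the fit 2 rose and 1 fell, which was PRR37, beside 55.5% of genes (27% higher, 28.5% lower). The median log2 change of the members was -0.40, -0.40 and -0.10 in the 3 comparisons, beside 0.01, -0.19 and -0.20 over all genes. Total-count scaling moved the median of all genes by 0.477, -0.296 and -0.775, and the members called became 2 higher and 1 lower, 2 and 3, and 1 and 2.

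The authors' deposited table gives log2 fold changes for PHYA of -2.07, 2.37 and 4.42 in the same order of comparisons. In the authors' deposited table TOC1 has 2.02 and 1.98 against control and LHY -0.75 and -1.17. The authors' adjusted p-values in that deposited table were below 0.05 for PHYB (1.66e-07), PHYC (0.0168) and LHY (0.0258) in moderate against control, where the 9-library fit here did not call them.

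The phytochromes also changed relative to each other within a library. The ratio of PHYA to PHYB counts was 8.52, 7.01 and 5.71 in control, 3.23, 3.05 and 3.17 in moderate and 72.2, 66.2 and 65.3 in severe. The severe libraries lay close together in this ratio (log2 6.08 ± 0.08) although their PHYA levels ran from 928 to 1966 CPM. The ratio of PHYC to PHYB was 2.52, 2.11 and 2.12 in control, 3.78, 2.80 and 3.15 in moderate and 11.1, 6.57 and 4.24 in severe, with no overlap between groups. Neither ratio depends on the scaling between libraries. PHYA to PHYC stood at log2 1.64 ± 0.18 in control, -0.03 ± 0.18 in moderate and 3.33 ± 0.62 in severe.

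**Figure D3:**
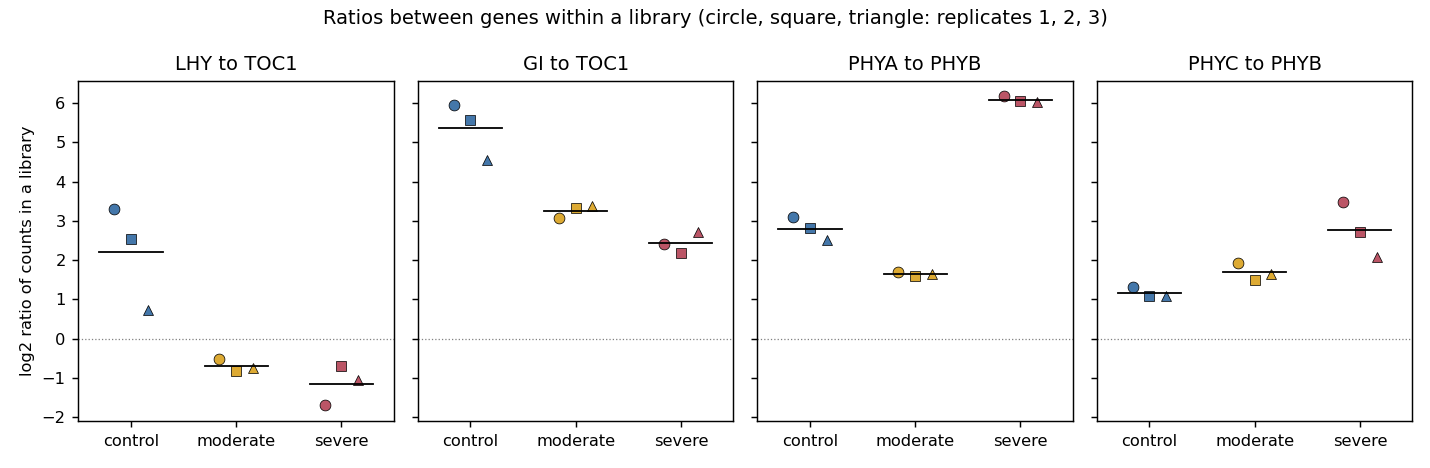
Log2 ratio of the counts of 2 genes in the same library (y axis) for the 3 libraries of each group (x axes), with bars for the group means and a dotted line at equal counts. LHY to TOC1 lies above 0 in control and below 0 in both stressed groups, and PHYA to PHYB averages 2.80 in control, 1.65 in moderate and 6.08 in severe.

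Levels between genes can be set side by side per length, with the authors' deposited FPKM (read counts scaled by library size and gene length). The length behind these values equals the genomic span with introns for all 7 members, 2925 bases for TOC1 to 12866 for PHYA, so genes with long introns read low. On that scale GI stood first in control (156 ± 8.52 FPKM) and moderate (162 ± 4.99). PHYA had the highest mean in severe (119 ± 32.5 FPKM), although its range overlapped that of GI (92.3 ± 9.68). In control PHYA (22.5 ± 3.90), PHYC (17.1 ± 1.12), LHY (12.8 ± 4.30) and TOC1 (12.6 ± 7.36 FPKM) followed, each overlapping the next. In moderate the order was TOC1 (50.6 ± 5.14), PHYC (13.0 ± 0.808), LHY (7.55 ± 1.60), PHYA (5.30 ± 0.374) and PHYB (2.35 ± 0.238 FPKM), with no overlap between neighbours. In severe TOC1 (50.6 ± 7.30 FPKM) came next, ahead of PHYC (27.7 ± 4.29), LHY (5.80 ± 2.66) and PHYB (2.46 ± 0.780), again with no overlap between these. PRR37 was last in each group, at 0.0292, 0.130 and 0.0216 FPKM.

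Another 6 loci were listed by identifier as candidates for the photoperiod pathway, from general knowledge. No file used here annotates them with a gene name, so their identity was not checked and their counts stand for the identifiers alone. All 4 tested loci, like PRR37, reached the count minimum in 3 moderate libraries and in at most 1 library of another group. They were thus tested because moderate was high, and their calls support nothing. Summed over a group's libraries, the counts of each locus were highest in moderate. Sobic.010G115800, with the CCT label of the CONSTANS-type and TOC1-type proteins, had 2, 0 and 8 counts in control, 113, 63 and 141 in moderate and 0, 0 and 16 in severe. Sobic.006G004400, with the same label, had 0, 1 and 1, then 11, 17 and 32, then 0, 0 and 2. Both were called higher in moderate than in control (edgeR quasi-likelihood test, Benjamini-Hochberg adjusted p = 0.043 and 0.0175). Of the 4 tested loci 2 were called, both higher, and 0 fell, beside 8.94% of all tested genes higher and 8.17% lower. In edgeR 3 of these loci had an unadjusted p below 0.05, and DESeq2 called 3. No fold is given, as the control libraries held 10 and 2 counts in all.

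The other 2 tested loci carried no family label. Sobic.009G199900 had 2, 6 and 3 counts in control, 14, 23 and 53 in moderate and 2, 1 and 8 in severe. Sobic.003G295300 had 1, 7 and 11, then 10, 34 and 66, and no count in any severe library. In severe against moderate all 4 tested loci were called lower, beside 33.6% of all tested genes. These loci were tested because moderate was high, so this is no support for a difference. In severe against control 1 was called lower (Sobic.003G295300) and 0 higher, beside 34.9% and 31.6% of all tested genes. The untested loci Sobic.010G045100 and Sobic.001G227900 had 11 and 1 counts summed over control, 40 and 6 over moderate and 3 and 1 over severe. In moderate against control 0 loci were called without any 1 control library or moderate replicate 3, and 1 without moderate replicate 1 or 2. In severe against control 0 were called without control replicate 2 or 3 or severe replicate 2 or 3. In severe against moderate 3 were called without moderate replicate 1, and 2 without moderate replicate 3 or severe replicate 1 or 2. The loci that passed the filter changed with the library left out, 4 or 5 being tested.

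**Figure D4:**
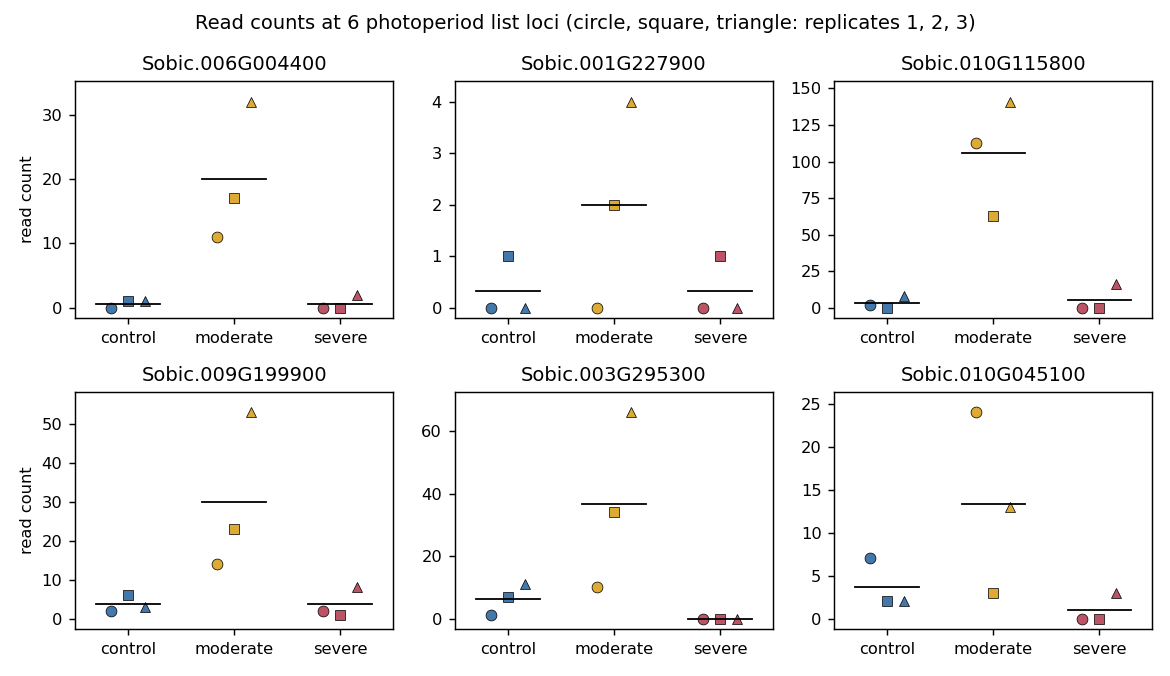
Read counts as deposited (y axes, linear, each panel on its own scale) at the 6 loci in the 3 libraries of each group (x axes), with bars for the group means. Over the groups Sobic.010G115800 totals 10, 317 and 16 counts in control, moderate and severe.

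Genes with the same family labels as the members were counted without the members. The labels were picked after the table had been seen, and they do not tell which genes act in the clock. Of 25 tested genes with the CCT label 3 rose and 5 fell in moderate (4 and 4 with total-count scaling), and 6 rose and 10 fell in severe (4 and 10). All tested genes had 8.94% higher and 8.17% lower in moderate and 31.6% and 34.9% in severe, so the severe count of the label lay near the background. The median log2 changes of the label were 0.08 and -0.13, beside 0.01 and -0.19 over all genes. Sobic.004G256200 rose from 1.07 ± 0.224 CPM in control to 9.53 ± 2.27 in moderate and 53.7 ± 35.8 in severe. Sobic.004G211200 averaged 145 ± 41.0 CPM in control, fell to 35.7 ± 3.64 in moderate and was at 244 ± 139 in severe, higher than in moderate (log2 change 2.77, SE 0.41). Sobic.010G249200 fell from 37.0 ± 4.81 to 20.5 ± 1.30 CPM in moderate, and its severe mean of 58.6 ± 15.7 exceeded moderate by 1.52 on the log2 scale (SE 0.23). Sobic.004G063200 fell from 374 ± 49.1 to 28.6 ± 14.9 CPM in severe, and Sobic.009G259100 from 187 ± 73.7 to 23.4 ± 3.02.

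Of 18 tested genes with the response regulator label, which covers pseudo-response regulators and cytokinin response regulators alike, 2 rose and 5 fell in moderate (3 and 3 with total-count scaling), and 4 rose and 8 fell in severe (3 and 9). The severe count again lay near the 66.5% called over all tested genes, and 17.1% were called in moderate. The median log2 changes of the label were -0.48 and -0.48, beside 0.01 and -0.19. Sobic.010G064700 rose from 3.17 ± 0.339 CPM in control to 16.0 ± 2.11 in moderate and 54.4 ± 26.0 in severe. Sobic.004G178000 fell from 38.3 ± 6.0 CPM to 7.43 ± 2.90 in moderate and 0.0727 ± 0.0811 in severe. Sobic.001G411400 was lower in severe, at 105 ± 52.3 CPM, than in moderate, at 481 ± 44.5 (log2 change -2.19, SE 0.39). Beside the 3 phytochromes the GAF label held 3 other genes, 2 of them tested. Of these Sobic.004G349175 averaged 16.8 ± 10.7 CPM in control and rose to 78.4 ± 16.0 in severe, and Sobic.002G327600 was at 1.02 and 0.996 CPM.

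For each member the genes with the most similar course over the 9 libraries were sought among 5823 genes with a label or description and a mean of at least 5 CPM, by Pearson's r of log2(CPM + 1). The 9 libraries form 3 groups, so r mostly reflects the group means and says nothing of the size of change. Nearest to PHYA came Sobic.002G125800 (PGM_PMM_II label, r = 0.994), at 30.0, 23.0 and 38.4 CPM in control, moderate and severe, and Sobic.002G067100 (RRM_1, r = 0.990), at 20.001, 11.5 and 36.4. Nearest to TOC1 came Sobic.003G321900 (CDP-OH_P_transf, r = 0.978), at 6.18, 12.3 and 11.5 CPM. LHY had the weakest match of the 7, Sobic.002G255400 (FKBP_C, r = 0.943), at 26.1, 17.8 and 11.3 CPM. The closest to GI was Sobic.004G104800 (Pkinase, r = 0.995), to PHYB Sobic.004G307500 (tRNA-synt_2d, r = 0.983), to PHYC Sobic.001G479500 (Epimerase, r = 0.984) and to PRR37 Sobic.003G337300 (Pkinase, r = 0.978).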

How the data were processed

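RNA from 9 leaf libraries was sequenced by the authors, who aligned reads with HISAT2 2.0.5 and used DESeq2 1.20.0, per the submitters' processing notes. Read counter, strand setting and genome build were not given in the sources used here. Raw counts, deposited as whole numbers per gene and library, carry every test. FPKM and log2 fold changes with adjusted p-values (p-value columns) were deposited by the authors and are quoted as theirs.

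Tests used edgeR 4.0.16 under R 4.3.3 (filterByExpr, 22356 genes kept; TMM; quasi-likelihood F-test, 2-sided, 1 mean per group, 9 libraries in 1 fit), with Benjamini-Hochberg adjustment over all tested genes per comparison. The SE is the log2 change divided by the root of F, and intervals use the t distribution. The procedure was also run on simulated counts that had a single spread per gene for all groups. That run does not cover the larger spread of the severe libraries. DESeq2 1.42.0, limma 3.58.1 on log2(FPKM + 1) and log2(FPKM + 0.1), other scalings, fits of 2 groups, a replicate block and the omission of each library were alternatives. No 2 replicates agreed within counting noise (chi-square per degree of freedom 18.9 to 339).

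The members and lists were chosen with earlier results of these data known. Of 44 words for clock, light and marker genes, 2 matched descriptions, which were helicases and FAR1-type loci outside the reference annotation. The lists were therefore replaced by 6 loci listed by identifier and 5 family labels, the labels chosen after the data were seen. From each list the rule named up to 4 called genes per comparison with at least 5 CPM and no overlap, of which examples are printed, and all 6 listed loci are shown.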

Additional observations from a re-analysis of the deposited data

How the results depend on the processing

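Over the 21 changes of the members (7 genes, 3 comparisons) and up to 17 alternatives, direction and side of the threshold were kept in 307 of 356 cases. Calls were lost in 31, gained in 8 and the direction reversed in 10, and 10 of the 21 changes were the same throughout, the 3 of PHYA and those of TOC1 against control among them. Reversals were in PHYB for severe against moderate, with log2 changes of 0.08 (DESeq2 size factors), 0.07 (DESeq2, and without moderate replicate 2), 0.26 (without severe replicate 1) and 0.02 (limma, both pseudocounts), in TOC1 for severe against moderate, with 0.01 (DESeq2 size factors), 0.02 (without severe replicate 1) and 0 (DESeq2), and in PHYC for moderate against control, with 0.09 (total counts). Without 1 library these PHYB and TOC1 changes ran from -0.24 to 0.26 and from -0.25 to 0.02, and total-count scaling gave -0.70 and -0.86. None of these changes was called in any setting that reversed it. With only the 2 groups compared, 5 members in place of 3 were called for moderate against control and 2 in place of 6 for severe against control. Those fits have fewer libraries and take the spread from the 2 groups alone. Without 1 library the members called were 2 to 4, 2 to 6 and 3 to 4 in the 3 comparisons, and the 6 loci listed by identifier 0 to 3, 0 to 1 and 2 to 5. The 1 listed locus called in severe against control became 0 with only the 2 groups compared, where the filter left none to test, and 0 with limma at either pseudocount. Over all alternatives, genes called in moderate against control ran from 2 to 10 for CCT, 4 to 13 for response regulators, 0 to 8 for FAR1, 0 to 4 for zf-B_box and 0 to 1 for GAF, beside 8, 7, 1, 0 and 0.

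Same-numbered libraries of different groups were not tied by the labels, and 5 of the 9 same-numbered pairs correlated above 0.1 in their deviations (-0.0355 to 0.258; 7 of 9 libraries matched their own number best). With the replicate block the members called were 3, 6 and 4, and the listed loci 2, 1 and 4, the same counts as without it. Ratios of members were the same from deposited FPKM as from counts. The order per coding length was not run, as no coding lengths were used here. Depth limits PRR37 and the listed loci, with 169 and 8 to 343 counts over all libraries.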

Other observations

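Genes of 2 other families linked to light signalling were described in the same way, with the labels chosen after the data were seen and covering more than light-signalling genes. Of 10 tested genes with the B-box zinc finger label, a family that includes light-signalling regulators, 5 rose and 3 fell in severe against control, or 3 and 3 with total-count scaling (median log2 change 0.61, beside -0.19 over all genes), where all tested genes had 31.6% higher and 34.9% lower. Sobic.002G273300 rose from 17.0 ± 4.51 to 49.0 ± 5.11 CPM, and Sobic.010G262200 from 1.69 ± 0.934 to 39.2 ± 33.1. Sobic.008G073400 fell from 20.8 ± 1.65 to 0.543 ± 0.599 CPM and Sobic.003G026700 from 138 ± 12.5 to 19.3 ± 17.9. In moderate against control edgeR called 0 of the 10, with 1 at an unadjusted p below 0.05, and DESeq2 also called 0. Of all tested genes edgeR called 17.1% there (8.94% higher, 8.17% lower).

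Of 33 tested genes with the FAR1 label, the family of the FHY3 and FAR1 factors that carry phytochrome A signals in Arabidopsis, 2 rose and 13 fell in severe against control (2 and 12 with total-count scaling), beside 31.6% of all tested genes higher and 34.9% lower. Their median log2 change was -0.43. Sobic.006G119400 fell from 15.3 ± 0.484 to 3.68 ± 1.77 CPM and Sobic.004G209600 from 32.5 ± 0.597 to 14.0 ± 4.85, while Sobic.002G316600 rose from 5.98 ± 0.320 to 20.8 ± 4.10. In moderate against control edgeR called 1, which was lower, beside 17.1% of all tested genes called (8.17% lower). With DESeq2 5 were lower. With total-count scaling edgeR called 0, although 5 were lower at an unadjusted p below 0.05 in the TMM-scaled fit.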
